A study of Mus musculus with 12 samples.

Results

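The tumors described here grew from P815-IFNG cells, and those of mice given blue light were compared with those of mice given none. The latter are the dark group of the study. P815 is a mouse mastocytoma line, a tumor of mast cells that forms solid tumors in DBA/2 mice. The P815-IFNG line is 1 clone that carries GAVPO, a blue-light-sensitive transactivator driven by the EF-1α promoter, together with a UAS-driven cassette of mouse Ifng and Cxcl10 joined to a secreted luciferase and a reporter of mRuby and firefly luciferase. Of the 12 libraries of the series, 6 were from these tumors, 3 from the light group and 3 from the dark group, with 1 mouse behind each library. The other 6 libraries were from P815-M tumors, again with 3 mice in light and 3 in the dark. P815-M is another clone, which carries the mRuby and luciferase reporter and has neither GAVPO nor the cytokine cassette. The cells had been implanted under the skin of the back 7 days before the mice were assigned to the groups, the mice were 9 to 10 weeks old, and the light groups received blue light of 2.5 mW per square centimetre for 12 h of each day. The labels give 6 days of light, and the methods of the study give a day more. The methods name a 12/12 h light/dark cycle for the animals, without saying whether it held during illumination. Mice of the light group were housed singly in the light-controlled cages, and the housing of the dark group is not stated. Blue light and single housing therefore cannot be told apart.

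IFNG, or interferon gamma, is a cytokine of activated T cells and natural killer cells. It binds the receptor chains IFNGR1 and IFNGR2, signals through the JAK kinases and STAT factors, and induces IRF1, which in turn induces further genes. Its best-known targets include the guanylate-binding proteins and the immunity-related GTPases, which act on intracellular pathogens and their vacuoles, the genes of antigen presentation, and the chemokines CXCL9 and CXCL10, which attract cells bearing CXCR3. Blue light itself also reaches the mouse, whose circadian clock follows the light cycle.

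The 6 libraries were of 2 kinds. In each group replicates 1 and 2 were shallow, with totals between 2222706 and 2946792 counts, and replicate 3 was deep, with 41473500 counts (light) and 42338096 counts (dark). All P815-M libraries were shallow. The kinds also differed in the share that mt-Nd6, a gene on the strand opposite to the other mitochondrial coding genes, took of the mitochondrial coding counts, which was at most 3.85% in the deep libraries and at least 32.2% in the shallow ones of P815-IFNG tumors. Levels are given as CPM, which sets each count against its library total after TMM scaling, in the order of replicates 1, 2 and 3. In log2 CPM over 10634 genes, light replicate 1 correlated at 0.94 with light replicate 2 and at 0.39 with light replicate 3. The 2 deep libraries correlated at 0.98 with each other. Whether the kinds differ in the strand counted, and so in how far a row measures its named gene, was not tested. A count of 3, taken as the floor of detection in 1 library, came to between 0.931 and 1.46 CPM in the shallow libraries of P815-IFNG tumors and to at most 0.0694 CPM in the deep ones, for counting error only. Because the kind of library was a term of the model and each kind holds both groups, light and dark were compared within kinds. The tumors were sequenced whole, so fewer cells of a type and less RNA per cell cannot be told apart in any of the values below.

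Across all genes, light and dark tumors differed little by the test. Of 18804 genes, 2 were called (0.0106%), meaning that edgeR's quasi-likelihood p, adjusted by Benjamini-Hochberg, was 0.05 or less and that the log2 fold change was 1 or more in size. The predicted gene Gm45752 rose in light (1 gene, 0.00532%) and the fast muscle myosin gene Myh4 fell (1 gene, 0.00532%). An unadjusted p under 0.05 was found for 1568 genes (8.34%), of which 779 were higher in light (4.14%) and 789 lower (4.2%). These shares are the background for such counts in the lists below. The sign of the log2 fold change was positive for 46.7% of all genes. The number of calls depended on single libraries. It was 52 without light replicate 2, 38 without dark replicate 1, 6 without dark replicate 2, 4 without light replicate 3 and 1 without light replicate 1, and leaving out single P815-M libraries gave between 1 and 14.

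A stricter description asked which genes differed the same way within both kinds of library. For this, both shallow light libraries had to lie beyond both shallow dark libraries, the deep pair had to differ in the same direction, and the ratio of means of CPM + 1 had to reach 1 on the log2 scale in each kind, with at least 5 CPM in the higher shallow group and 1 CPM in the higher deep library. This held for 24 genes higher in light (0.128% of all genes) and 30 genes lower in light (0.16%), while 27 genes passed in opposite directions (0.144%). The shallow condition alone was met by 192 genes higher and 393 lower, and the deep condition alone by 314 higher and 98 lower. Over 11423 genes with a mean of at least 5 CPM in the shallow and 1 CPM in the deep libraries, 54.6% had the same direction in both kinds, and the log2 ratios of the kinds correlated across genes at r = 0.16, although genes are not independent replicates. At the limit, Slc12a8 was just inside on the higher side, with log2 ratios of 1.44 in the shallow and 1.03 in the deep libraries, and Klf2 just outside, with 0.99 and 1.59. On the lower side Acp5 was just inside, with -1.73 and -1.003, and Kif14 just outside, with -1.08 and -0.998. The number of genes higher in both kinds was 9 without light replicate 1, 71 without light replicate 2 and 68 without dark replicate 1, so that light replicate 2 and dark replicate 1 were the libraries that kept most genes from passing.

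**Figure D1:**
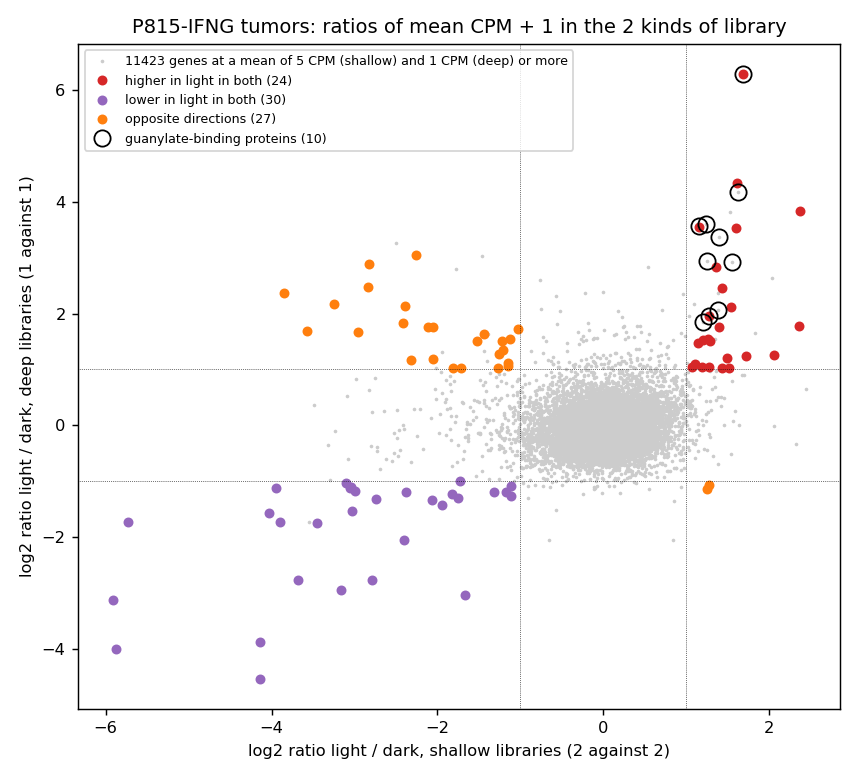
Log2 ratio of light to dark in P815-IFNG tumors for each gene, from the means of CPM + 1 in the shallow libraries (horizontal axis, 2 against 2) and the deep libraries (vertical axis, 1 against 1); dotted lines mark a log2 ratio of 1 in size. The 24 genes higher in both kinds sit in the upper right, where the 10 guanylate-binding proteins also lie, the 30 genes lower in both in the lower left, and 25 of the 27 genes of opposite direction in the upper left.

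The cytokine cassette itself was measured at low levels. The knock-in cassette of Ifng, Cxcl10 and luciferase had 4.42, 2.93 and 5.28 CPM in light and 2.79, 2.01 and 2.81 CPM in the dark, which in the shallow libraries came from 6 to 11 counts. All 3 light values lay above all 3 dark values, but the log2 fold change of 0.74, with a standard error (SE) of 0.63, was not called by edgeR (adjusted p = 0.821). In P815-M tumors, which lack the cassette, it had no count in 5 of the 6 libraries. Reads from the cytokine part of the cassette and from the endogenous genes share sequence, so how many of them were counted, and in which row, is uncertain.

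The row of Ifng itself had 14.9, 1.95 and 1.76 CPM in light and 1.86, 1.01 and 0.670 CPM in the dark. On the log2 scale it differed by 2.07 ± 0.77 SE (edgeR adjusted p = 0.459), and light replicate 1 alone lay far above the others. Within each kind of library light lay above dark. Light replicate 2 exceeded dark replicate 1 only slightly, at 1.95 against 1.86 CPM, and both were near the floor. The transactivator GAVPO had 454, 507 and 1338 CPM in light against 392, 509 and 1784 CPM in the dark, with a log2 fold change of -0.079 ± 0.22 SE. Its groups overlapped, and its sign turned to 0.081 in the shallow libraries alone. The mRuby reporter had 80.0, 117 and 165 CPM in light and 46.2, 95.5 and 228 CPM in the dark, and its log2 fold change of 0.13 ± 0.24 SE became -0.12 without light replicate 2 and -0.20 without dark replicate 1.

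Cxcl10, the chemokine of the cassette, was among the 24 genes higher in both kinds. Its row had 39.0, 7.32 and 2.45 CPM in light and 5.90, 3.69 and 0.446 CPM in the dark. Its log2 fold change was 2.33 ± 0.62 SE and was not called by edgeR (adjusted p = 0.194). Both shallow light libraries lay above both shallow dark ones, and the deep light library above the deep dark one. On the other strand it overlaps exons of Art3, which was also higher in light, with 193, 42.9 and 2.08 CPM against 27, 14.7 and 0.960 CPM, and part of these counts cannot be assigned to one gene.

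Interferon-induced genes made up most of the known genes that were higher in both kinds of library. Of the 24 genes, 13 were members of the interferon lists, 4 overlapped a gene on the other strand, and 1, Gm45752, was called. Their median log2 fold change was 1.80, with a median log2 ratio of 1.41 in the shallow and 1.54 in the deep libraries, beside a median of -0.03 over all genes. These medians describe genes that were chosen on the same values.

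**Figure D2:**
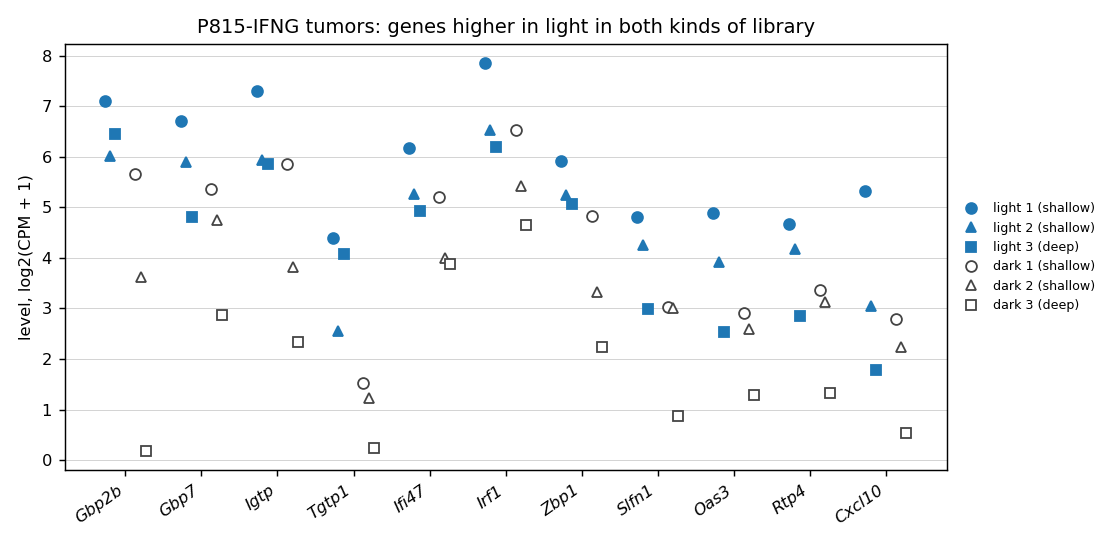
Level of 11 genes in each of the 6 P815-IFNG libraries, as log2(CPM + 1); filled blue symbols are light and open grey symbols dark, circles and triangles the shallow replicates 1 and 2, squares the deep replicate 3. Among the shallow symbols, and between the squares, light lies above dark in every gene shown, while the shallow dark replicate 1 often lies near the light libraries.

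The guanylate-binding proteins are large GTPases that are recruited to pathogen vacuoles and to bacteria, and 10 of 11 listed members could be tested. All 10 were higher in light, where 46.7% of all genes were, and 10 had an unadjusted p under 0.05, where the background was 4.14%. None was called by edgeR. DESeq2 called 4, of 58 genes called among 15154, and edgeR after ComBat-seq adjustment 10, of 180 called among 18661. Their median log2 fold change was 2.31, and their median log2 ratio was 1.33 in the shallow and 3.15 in the deep libraries. Without dark replicate 1 the median was 3.29 and all 10 were called, without light replicate 2 it was 2.91 with 7 called, and without dark replicate 3 it was 1.38 with none called. Only Gbp7 and Gbp2b met the condition on both kinds, since for the other 8 dark replicate 1 lay above light replicate 2.

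Gbp2b had 136, 63.9 and 87.1 CPM in light and 49.3, 11.4 and 0.134 CPM in the dark. The deep dark library held 6 counts of Gbp2b against 3762 in the deep light library, so that the difference between the deep libraries was far larger than that between the shallow ones. Gbp7 had 104, 58.6 and 27.2 CPM in light and 40.3, 25.8 and 6.30 CPM in the dark (log2 fold change 1.59 ± 0.33 SE, edgeR adjusted p = 0.113). Gbp2 had 196, 41.5 and 70.9 CPM against 76.3, 23.5 and 4.96 CPM, and here the shallow groups overlapped. Summed over the 10 genes, the level was 1010, 339 and 290 CPM in light and 374, 125 and 17.2 CPM in the dark, so dark replicate 1 was above light replicates 2 and 3. Guanylate-binding protein genes are near-identical copies in part, and how many reads of shared sequence were counted, and for which copy, is uncertain.

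The immunity-related GTPases, small relatives of the guanylate-binding proteins that are also induced by IFNG, had the same direction. All 10 were higher in light, 7 with an unadjusted p under 0.05, where the background was 4.14%. None was called by edgeR. DESeq2 called 1, of 58 genes called among 15154, and edgeR after ComBat-seq adjustment 8, of 180 called among 18661. Their median log2 fold change was 1.53, from 1.09 in the shallow to 2.26 in the deep libraries, and 5 met the condition on both kinds. Without dark replicate 1 the median was 2.51 with 5 called, without light replicate 2 it was 2.13 with 4 called, and without dark replicate 3 it was 1.11 with none called. Tgtp1 had 20.1, 4.88 and 15.9 CPM in light and 1.86, 1.34 and 0.179 CPM in the dark (log2 fold change 4.38 ± 0.75 SE, edgeR adjusted p = 0.0632). This was the smallest p of any gene with a known function that was higher in both kinds, and it rests in the shallow dark libraries on 6 and 4 counts. Its near-copy Tgtp2 had 40.6, 22.0 and 54.4 CPM against 21.7, 5.36 and 3.75 CPM.

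Igtp, also called Irgm3, a regulator of the other immunity-related GTPases, had 157, 60.0 and 57.0 CPM in light and 57.1, 13.1 and 4.02 CPM in the dark. Every shallow light library lay above every shallow dark one, although light replicate 2 was close to dark replicate 1. On the log2 scale this was 2.38 ± 0.48 SE (edgeR adjusted p = 0.11). Iigp1, an effector GTPase of the family, had 275, 136 and 64.5 CPM against 95.9, 36.5 and 2.25 CPM, and Ifi47 had 71.6, 37.6 and 29.5 CPM against 35.7, 15.1 and 13.7 CPM. Irgm1 and Irgm2 had the same direction, with log2 fold changes of 1.53 in both, and their shallow groups overlapped.

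Where a promoter was found, the upstream regions of most of these genes hold the letters that the factors of the pathway are known to bind. The gamma-activated sequence, GAS, was searched as TTCNNNGAA and the core of the interferon-stimulated response element, ISRE, as 2 copies of GAAA in 1 direction with 2 bases between them, both on either strand, in the 300 bases from 250 before to 50 after each start in RefSeq on GRCm38.p6. Promoters were matched by symbol for 13303 of the 18804 genes, of which 8.52% held GAS letters and 3.77% ISRE letters. Of the 24 genes higher in both kinds, 16 had a promoter in the table, of which 6 held GAS (37.5%) and 11 held ISRE letters (68.8%). Of the 30 genes lower in both kinds, 22 had one, of which 3 held GAS (13.6%) and 1 held ISRE letters (4.55%). Of the guanylate-binding proteins 5 had a promoter, of which 2 held GAS and 5 ISRE letters. Of the immunity-related GTPases 8 had one, of which 4 held GAS and 6 ISRE letters, while Ifi47 and 9930111J21Rik2 held neither. Such a match is a run of letters and not a measured binding site. The stretches below were picked with the values known, to show how these letters lie in front of immunity-related GTPases, guanylate-binding proteins, Irf1 and Cxcl10. Of the 8 genes, Irgm2 is not one of the 24 and is printed for its likeness to Igtp, and capitals mark the GAS and ISRE letters on either strand.
Igtp: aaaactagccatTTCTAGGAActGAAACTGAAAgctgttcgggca
Irgm2: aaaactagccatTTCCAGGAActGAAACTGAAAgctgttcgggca
Tgtp1: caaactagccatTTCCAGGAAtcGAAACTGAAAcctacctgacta
Tgtp2: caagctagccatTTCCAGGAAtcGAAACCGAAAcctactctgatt
Gbp7: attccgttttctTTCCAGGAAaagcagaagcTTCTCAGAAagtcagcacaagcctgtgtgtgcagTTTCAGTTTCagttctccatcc
Gbp2b: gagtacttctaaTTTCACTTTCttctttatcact
Irf1: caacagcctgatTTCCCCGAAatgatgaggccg
Cxcl10: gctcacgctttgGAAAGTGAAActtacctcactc

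On GRCm38.p6 the Igtp stretch is chr11:58199499-58199543 on the plus strand and ends 13 bases before the start, the Irgm2 stretch is chr11:58214890-58214934 on the plus strand, and those of Tgtp1 and Tgtp2 are chr11:48992302-48992346 and chr11:49064261-49064305 on the minus strand. In these 4 immunity-related GTPases a GAS match is followed within a few bases by an ISRE match in the same order. The Gbp7 stretch, chr3:142530218-142530304 on the plus strand, holds 2 GAS matches and 1 ISRE match, and that of Gbp2b, chr3:142594698-142594731 on the plus strand, holds ISRE letters read on the other strand. The Irf1 stretch, chr11:53769912-53769944 on the plus strand, holds GAS letters and no ISRE letters, and the Cxcl10 stretch is chr5:92349081-92349114 on the minus strand.

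Among the genes of the receptor and its signalling, Irf1 was the one member that met the condition on both kinds. Irf1, the transcription factor induced early by IFNG, had 230, 92.2 and 72.5 CPM in light and 91.2, 41.9 and 24.1 CPM in the dark. Light replicate 2 barely exceeded dark replicate 1, and the fitted difference was 1.39 ± 0.32 SE on the log2 scale (edgeR adjusted p = 0.158). Irf7, a factor of the type I interferon response, had 111, 109 and 18.8 CPM against 68.3, 70.7 and 10.4 CPM, with no overlap within either kind. The receptor genes Ifngr1 and Ifngr2 had log2 fold changes of -0.13 and -0.30, and Jak1 and Jak2 of -0.16 and 0.00. Of the 14 genes of this list 10 were higher in light, 5 with an unadjusted p under 0.05, with a median log2 fold change of 0.20.

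The genes best known from the type I interferon response were also higher in light. Of 24 listed genes 22 were tested, all 22 were higher, and 16 had an unadjusted p under 0.05, where the background was 4.14%. Again none was called by edgeR. DESeq2 called 3, of 58 genes called in all, and edgeR after ComBat-seq adjustment 4, of 180. The 16 became 9 without light replicate 1, 6 without either deep library and 5 in the shallow libraries alone. Their median log2 ratio was nearly equal in the kinds, 0.72 in the shallow and 0.76 in the deep libraries, and in 16 of the 22 both shallow light libraries lay above both shallow dark ones, where the background was 18.2%. Oas3, one of the synthetases that sense double-stranded RNA, had 28.6, 14.2 and 4.79 CPM in light and 6.52, 5.03 and 1.45 CPM in the dark (log2 fold change 1.82 ± 0.34 SE, edgeR adjusted p = 0.0966). Rtp4 had 24.5, 17.1 and 6.23 CPM against 9.31, 7.71 and 1.5 CPM, and Rsad2, which encodes the antiviral protein viperin, had 20.1, 7.81 and 4.10 CPM against 5.59, 4.69 and 0.781 CPM. In each of these 3 genes the groups did not overlap within either kind.

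Outside the interferon lists, Zbp1 and Slfn1 showed the same pattern. Zbp1, a sensor of Z-form nucleic acids that can trigger cell death, had 59.5, 37.1 and 32.3 CPM in light and 27.3, 9.05 and 3.71 CPM in the dark. Light was above dark throughout here, since the lowest light library exceeded the highest dark one. Slfn1, a schlafen family gene, had 26.9, 18.1 and 6.97 CPM against 7.14, 7.04 and 0.826 CPM (log2 fold change 2.17 ± 0.40 SE, edgeR adjusted p = 0.0966). Cd226, an activating receptor of T cells and natural killer cells that other blood cells also carry, had 10.9, 3.90 and 5.97 CPM against 0.931, 0.335 and 1.03 CPM, from 3 and 1 counts in the shallow dark libraries. The set also held Bst1, which encodes CD157, Phf11b, Rnase6, Gm4951 and Slc12a8, with log2 fold changes from 1.55 to 2.72.

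The one gene that rose by the test, Gm45752, had 352, 166 and 6.78 CPM in light and 98.4, 82.1 and 2.84 CPM in the dark (log2 fold change 1.44 ± 0.23 SE, edgeR adjusted p = 0.0304). The call was lost when light replicate 1 or 3, dark replicate 2 or 3, P815-M light replicate 1 or 2 or P815-M dark replicate 1 was left out, with filterByExpr, with the P815-IFNG libraries alone, with the 10 shallow libraries alone, with thinned deep libraries and with no term for the kind of library. It is a predicted gene whose exons overlap Dpep2 on the other strand, and all 4 of its shallow levels lay far above its deep ones. Dpep2 itself, a dipeptidase gene, had at most 3.62 CPM in any of the 6 libraries. Gm11131, which overlaps the class I gene H2-Q4, and Gm40645, which overlaps the inhibitory receptor gene Lilrb4a, were also in the set, with log2 fold changes of 1.15 and 1.23. H2-Q4 had 430, 295 and 246 CPM in light against 290, 162 and 88.2 CPM in the dark. Counts of these predicted genes and of their partners cannot be told apart with certainty.

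Genes of antigen presentation by class I molecules had higher levels in light by a smaller amount. All 15 genes of this list had a higher level in light and 11 an unadjusted p under 0.05, where the background was 4.14%. Their median log2 fold change was 0.56, with a median log2 ratio of 0.49 in the shallow and 0.77 in the deep libraries. None was called by edgeR. DESeq2 also called none of the 15. Tap1, which carries peptides into the endoplasmic reticulum, had 269, 177 and 189 CPM in light and 192, 86.8 and 88.8 CPM in the dark, where dark replicate 1 exceeded light replicate 2. Psmb9, a subunit of the immunoproteasome whose exons overlap Tap1, had 284, 314 and 78.4 CPM against 236, 160 and 45.5 CPM. Of the 15, the number with an unadjusted p under 0.05 was 3 without light replicate 1, 4 without dark replicate 2 and 5 without either deep library. Class II genes differed between the kinds, since their median log2 ratio was 0.07 in the shallow and 1.20 in the deep libraries, and 2 of 8, Ciita and H2-DMa, had an unadjusted p under 0.05.

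The chemokines, effectors and checkpoint genes linked to IFNG went both ways. Of 13 interferon-linked chemokines and receptors 9 were higher in light and 4 lower, from -1.03 to 2.63 on the log2 scale, and 3 had an unadjusted p under 0.05. Of 12 myeloid effectors 8 were higher and 4 lower, from -1.20 to 2.60, although 6 of the 12 were higher in the shallow libraries and all 12 in the deep ones. Of 12 checkpoint and suppression genes 8 were higher and 4 lower, from -1.14 to 2.99. The genes with an unadjusted p under 0.05 in these lists were all higher. Cxcl9 had 176, 24.4 and 16.4 CPM in light and 54.6, 13.7 and 0.246 CPM in the dark, with overlapping shallow groups and a log2 fold change of 2.63 ± 0.69 SE. Nos2, which makes nitric oxide in activated macrophages, had 335, 49.8 and 46.1 CPM against 55.5, 50.9 and 13.9 CPM, so that in the shallow libraries its difference came from light replicate 1 alone. Acod1, the enzyme that makes itaconate in activated macrophages, had 77.6, 17.1 and 11.8 CPM against 18.3, 3.35 and 1.07 CPM. Cd274, which encodes the checkpoint ligand PD-L1, had 161, 56.6 and 46.9 CPM against 75.4, 26.8 and 21 CPM. In all 4 of these genes light replicate 2 lay below dark replicate 1.

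Markers of T cells had low levels. The 11 T cell markers summed to 24.5, 12.7 and 19.9 CPM in light and 52.8, 20.1 and 12.5 CPM in the dark, and none had an unadjusted p under 0.05. Cd3e had 1.61, 0 and 0.162 CPM in light and 6.21, 2.35 and 0.112 CPM in the dark, and Cd8a had 1.61, 0.976 and 0.162 CPM against 5.90, 0.335 and 0 CPM. In dark replicate 1 both lay above the floor of 0.931 CPM. The 9 markers of cytotoxic lymphocytes differed between the kinds, with a median log2 ratio of -0.38 in the shallow libraries, where 2 were higher in light, and of 1.00 in the deep ones, where all 9 were. They summed to 81.2, 29.8 and 112 CPM in light and 70.4, 53.6 and 61.6 CPM in the dark, and none had an unadjusted p under 0.05.

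Of the 10 dendritic cell markers 9 had a lower fitted level in light, with a median log2 fold change of -0.77. In 6 of the 10 both shallow light libraries lay below both shallow dark ones, where the background was 21%, or 3952 of 18804 genes, while the median log2 ratio was -0.85 in the shallow and -0.09 in the deep libraries. Their sum was 55.9, 36.1 and 91.1 CPM in light and 93.7, 100.5 and 82.6 CPM in the dark, so that light was lower in the shallow libraries and higher in the deep pair. Cd209a, the gene of a lectin of dendritic cells, was the one member with an unadjusted p under 0.05, with 0.402, 0 and 3.06 CPM in light against 1.55, 19.1 and 3.35 CPM, and its difference came mostly from dark replicate 2. Ly75, also called DEC-205, had 12.9, 3.42 and 13.7 CPM against 13.7, 7.04 and 13.9 CPM. The 12 macrophage and monocyte markers summed to 1785, 1099 and 681 CPM in light and 1441, 1444 and 601 CPM in the dark, with 2 higher and 1 lower at an unadjusted p under 0.05, and the part of such cells in the interferon-induced genes was not tested. The mast cell markers of the line itself were abundant, led by Cpa3 and Kit, and summed to 2060, 2029 and 12148 CPM in light and 2064, 1980 and 9143 CPM in the dark, although Tpsab1 and Ms4a2 were below 1 CPM in all 3 light libraries. In the shallow libraries 1 of the 11 tested was higher in light, and in 6 both light libraries lay below both dark ones (background 21%). In the deep pair 9 were higher, and the median log2 ratios were -0.51 (shallow) and 0.23 (deep). Cma1, a mast cell protease, was the 1 member with an unadjusted p under 0.05, and was higher in light, with a log2 fold change of 0.68.

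**Figure D3:**
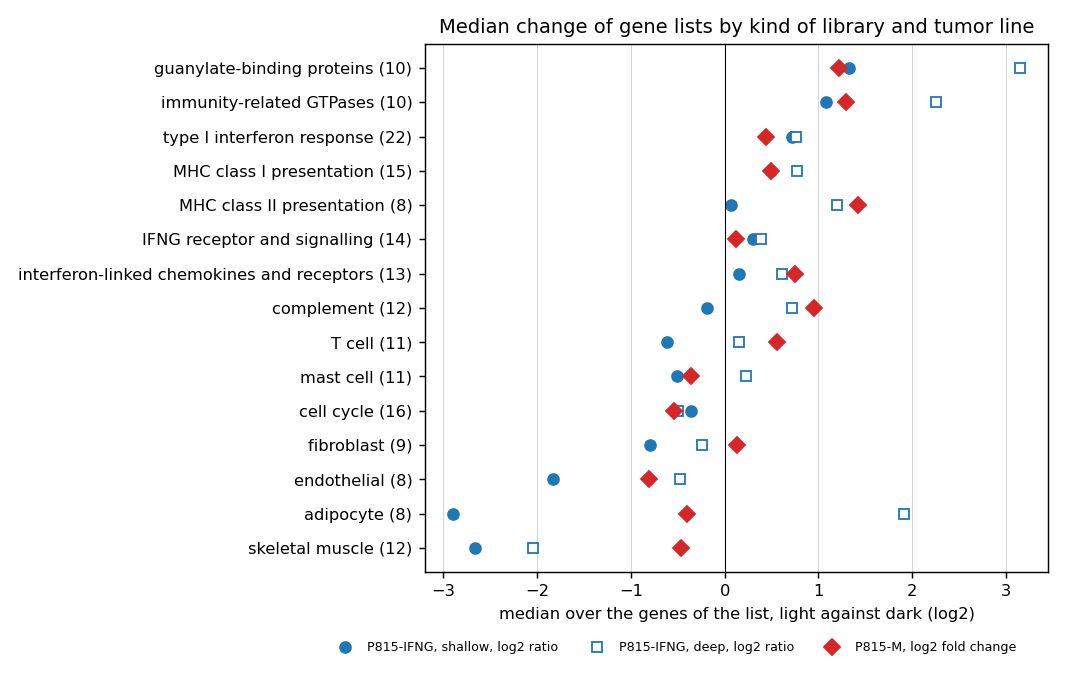
Median over the tested genes of each list (number in parentheses) of the light to dark log2 ratio in P815-IFNG tumors, in shallow (filled circles) and deep libraries (open squares), beside the median log2 fold change in P815-M tumors (red diamonds). The guanylate-binding proteins reach 1.33, 3.15 and 1.22, the muscle list -2.66, -2.05 and -0.46, and the adipocyte list lies on opposite sides of 0 in the 2 kinds.

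The genes lower in light were led by those of fast skeletal muscle. Of the 30 genes lower in both kinds, 6 were on the muscle list and others, such as Tnni2, Myl1, Pvalb, Tcap and Atp2a1, are muscle genes outside it. In 7 of the 30 all light libraries held 0 counts, and 7 overlapped a gene on the other strand. Of the 12 muscle markers all 12 had a lower fitted level in light, 8 with an unadjusted p under 0.05, where the background was 4.2%, and 1 was called, Myh4. Their median log2 ratio was -2.66 in the shallow and -2.05 in the deep libraries.

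**Figure D4:**
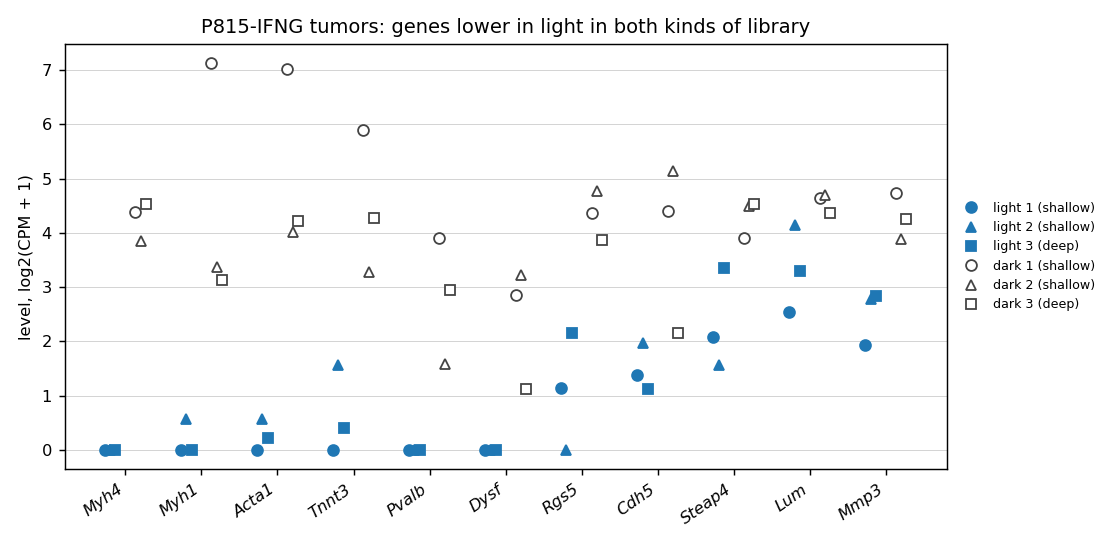
Level of 11 genes lower in light in each of the 6 P815-IFNG libraries, as log2(CPM + 1), with symbols for light (filled) and dark (open), shallow (circles and triangles) and deep (squares). Myh4, Pvalb and Dysf were at 0 counts in all 3 light libraries, and dark replicate 1 was the highest library of Myh1, Acta1, Tnnt3 and Pvalb.

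Myh4, the myosin heavy chain of the fastest fibres, had 0 counts in all 3 light libraries and 19.9, 13.4 and 22.1 CPM in the dark, from 64, 40 and 988 counts. Against the floor of 3 counts per library it was at least 12.5-fold lower in the shallow and at least 318-fold lower in the deep light library (adjusted p = 0.000533 from edgeR). The call was lost without dark replicate 3, with the 10 shallow libraries alone, with thinned deep libraries and with no term for the kind of library. Its level differed little among the dark libraries. Acta1, skeletal actin, had 0, 0.488 and 0.162 CPM in light and 129, 15.1 and 17.5 CPM in the dark, and Tnnt3, a fast troponin, had 0, 1.95 and 0.324 CPM against 58.7, 8.71 and 18.3 CPM. For both, dark replicate 1 was the highest library and all dark libraries lay above all light ones.

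Muscle genes were not uniform. Ckm, muscle creatine kinase, had 50.7, 44.9 and 137 CPM in light and 67.0, 53.6 and 134 CPM in the dark, and Ttn, titin, had 64.3, 66.4 and 2.71 CPM against 91.9, 40.9 and 7.59 CPM, with overlapping shallow groups. Summed over the 12 markers the level was 196, 140 and 144 CPM in light and 766, 178 and 238 CPM in the dark. In the P815-M tumors the same sum ran from 127 to 567 CPM in light and from 110.5 to 843 CPM in the dark, so that single tumors of either condition held high levels there. Myh2 and Myh4 were the markers at 0 in every light library. The part of muscle tissue taken with a tumor in these differences was not tested.

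Genes of vessels and stroma were also lower in light. Rgs5, a marker of pericytes, had 1.21, 0 and 3.43 CPM in light and 19.6, 26.1 and 13.7 CPM in the dark (log2 fold change -3.27 ± 0.78 SE, edgeR adjusted p = 0.162). Cdh5, the cadherin of endothelial junctions, had 1.61, 2.93 and 1.18 CPM against 20.2, 34.2 and 3.44 CPM. In both genes every light library lay below every dark one. Of the 8 endothelial markers 7 were lower in light, 4 with an unadjusted p under 0.05 (background 4.2%) and none called by edgeR. Their sum was 47.1, 45.4 and 33.8 CPM in light and 126, 157 and 45.1 CPM in the dark, and the exception, Tek, had a log2 fold change of 0.45.

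Of the fibroblast markers 5 of 9 had an unadjusted p under 0.05, all lower in light, where the background was 4.2%. Lum, the matrix protein lumican, had 4.83, 16.6 and 8.77 CPM in light and 23.9, 24.8 and 19.7 CPM in the dark and was the one member lower in both kinds by the stated condition. Col1a1, type I collagen, had 1578, 2076 and 859 CPM against 2247, 4462 and 1219 CPM. Mmp3, a matrix protease, had 2.82, 5.86 and 6.13 CPM against 25.4, 13.7 and 18.1 CPM, and Steap4, a metalloreductase, had 3.22, 1.95 and 9.17 CPM against 14.0, 21.4 and 22.2 CPM. For Lum, Mmp3 and Steap4 the groups did not overlap. The counts of this list rested on dark replicate 2, without which 1 of the 9 markers was lower and 1 higher at an unadjusted p under 0.05, the median log2 fold change went from -0.63 to -0.33 and that of Col1a1 from -0.75 to -0.39. The 30 genes also held Acp5, Adam23, Fads2 and H19, which are in none of the lists, with log2 fold changes from -2.81 to -1.23.

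**Figure D5:**
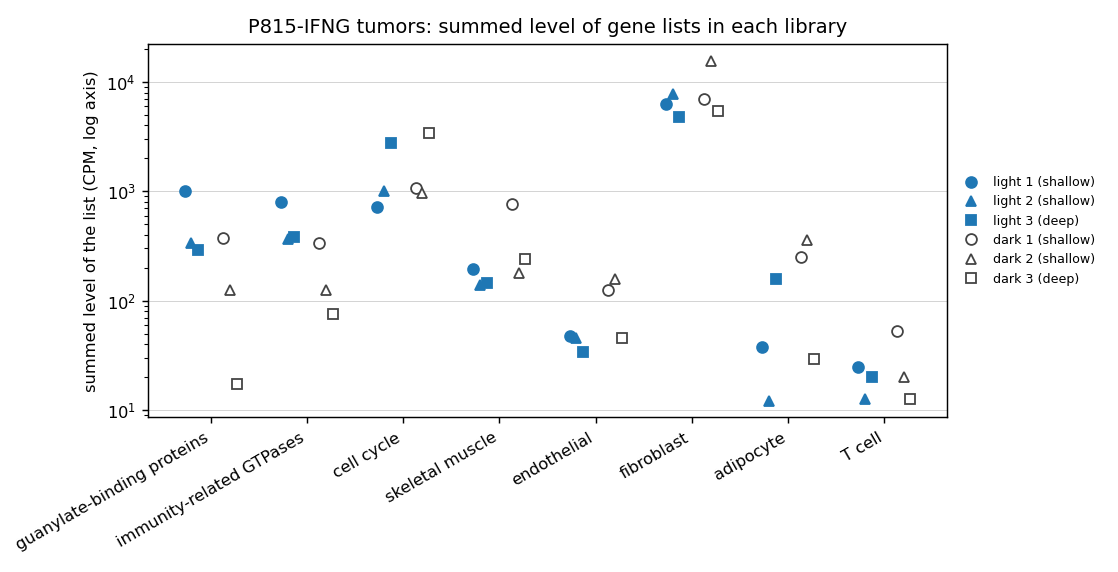
Summed CPM of 8 gene lists in each P815-IFNG library on a log axis, with light filled and dark open and the deep libraries as squares. The mean sums of muscle, vessel and interferon-linked GTPase genes differ between light and dark in the same direction in both kinds, while the adipocyte sum was 37.4 and 12.2 against 252 and 359 CPM in the shallow and 159 against 29.2 CPM in the deep libraries.

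Genes of cell division were lower in light by a small amount. Of 16 genes 14 were lower, 8 with an unadjusted p under 0.05 (background 4.2%) and none called by edgeR. Their median log2 fold change was -0.43. The 8 became 3 without light replicate 1, dark replicate 1 or either deep library, and the median became -0.23 without light replicate 1. The list had median log2 ratios of -0.36 and -0.49 in the shallow and deep libraries. Ccnb1, cyclin B1, had 13.7, 18.5 and 104 CPM in light and 34.1, 27.8 and 154 CPM in the dark (log2 fold change -0.79 ± 0.21 SE, edgeR adjusted p = 0.188), and the groups did not overlap within either kind. Mki67, the gene of the Ki-67 antigen, had 106, 137 and 602 CPM against 132, 119 and 638 CPM. In P815-M tumors all 16 genes were lower in light, with a median log2 fold change of -0.54.

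Genes of the circadian clock, which follows the light cycle of the animal, went both ways. Of 22 clock genes 11 were higher and 11 lower in light, with a median log2 fold change of 0.02 and a range from -1.07 to 1.46, and 10 were higher in the shallow and 16 in the deep libraries. The highest was Cry1, a repressor of the clock, with 4.02, 2.93 and 0.926 CPM in light and 1.24, 0.335 and 0.603 CPM in the dark and an unadjusted p of 0.0948 from edgeR. At an unadjusted p under 0.05, where the background was 8.34%, there were 2, Nampt with a log2 fold change of 0.50 and Hlf with -1.07. Dbp, an output gene that follows the clock closely, had 42.6, 51.7 and 35.6 CPM in light and 36.0, 35.5 and 29.1 CPM in the dark, and Per1 had 148, 149 and 87.6 CPM against 168, 170 and 84.0 CPM. The time of day of collection and the room light during illumination were not given in the sources used here.

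The same light was given to P815-M tumors, which come from another clone and lack both GAVPO and the cassette. Cassette, GAVPO and clone therefore cannot be told apart in the differences between the lines. In P815-M tumors 194 genes were called (1.03%), 178 higher (0.947%) and 16 lower (0.0851%) in light, and 51.1% of all genes had a positive log2 fold change. Of the 24 genes higher in both kinds in P815-IFNG tumors, 23 were also higher in light in P815-M tumors, with a median log2 fold change of 1.10, and in 15 of them the P815-M groups did not overlap, where the background was 10.1%. The exception, Slc12a8, had -0.33. Irf1 had 93.4, 78.5 and 73.8 CPM in light and 42.5, 20.3 and 61.3 CPM in the dark in P815-M tumors, and Gbp2b had 57.1, 35.9 and 31.8 CPM against 10.1, 2.08 and 23.5 CPM. The called genes among the 24 were Bst1, Gm11131, Gm45752 and Gm40645, the last 3 overlapping a gene of the other strand.

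All 10 guanylate-binding proteins and all 10 immunity-related GTPases were also higher in light in P815-M tumors, with median log2 fold changes of 1.22 and 1.30. Subtracting the effect of light in P815-M from that in P815-IFNG tumors gave medians of 0.93 and 0.64 for these lists. All P815-M libraries were shallow, and with the 10 shallow libraries alone the P815-IFNG medians were 1.38 and 1.11. The part of the deep P815-IFNG pair in the difference between the lines was not tested. None of the 24 genes was called for that difference. For Gbp2b the difference was 1.55 ± 1.30 SE, and for Tgtp1 it was 2.82 ± 1.16 SE (edgeR adjusted p = 0.781). For Slfn1, which had a log2 fold change of 0.01 in P815-M tumors, the difference was not called either.

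Of the 30 genes lower in both kinds, 24 were also lower in light in P815-M tumors, with a median log2 fold change of -0.58, none called by edgeR and 1 with groups that did not overlap, where the background was 8.06%. Over all genes, the difference between the lines was called for 3 genes (0.016%), Myh4, Apoe and Gm45091, and 1078 had an unadjusted p under 0.05 (5.73%). Apoe, the apolipoprotein of macrophages and liver, had 266, 586 and 132 CPM in light and 1732, 1312 and 158 CPM in the dark in P815-IFNG tumors. In P815-M tumors it had 554, 718 and 814 CPM in light and 293, 284 and 147 CPM in the dark, so that its shallow libraries differed in opposite directions in the lines.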

How the data were processed

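The files hold deposited raw counts of reads for each gene symbol. The authors made them with fastp, STAR 2.7.9a and HTSeq 0.13.5 at default settings, on mm10 to which the knock-ins had been added. The kit was stranded, and the annotation release was not given in the sources used here. Removal of mitochondrial genes and ComBat-seq adjustment, which the authors applied later, are not in these counts. Each file held 32288 rows, of which 3 were knock-in sequences. Rows of the 38 duplicated symbols were kept apart and treated as separate genes. The values of 1 gene are not reported here.

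Rows of 13 mitochondrial genes were dropped, as were genes whose counts totalled under 10, which left 18804 genes. Libraries over 10000000 counts were set as a kind of their own, since no label names a batch. Counts were fitted with R 4.3.3 and edgeR 4.0.16 over all 12 libraries, with TMM, 1 mean per group and the kind of library as a term, and tested by quasi-likelihood with Benjamini-Hochberg adjustment over all genes. Counts were also simulated for the comparison of light and dark in P815-IFNG tumors, over 18389 genes. The changed genes had a mean of at least 20 counts in the shallow libraries and changed equally in both kinds. Of those changed by 2 on the log2 scale 99% were called, of those changed by 4 100%, and 20 unchanged genes were called. Simulated counts varied independently from gene to gene, with the estimated dispersion of each gene around 1 mean share per kind of library. Such recovery does not cover genes of lower counts, changes that differ between the kinds, or tumors whose genes vary together. In the data, none of the 10 guanylate-binding proteins was called, with a median log2 fold change of 2.31.

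The genes and lists were chosen with earlier results of these data known. Genes named are the 12 of smallest p per direction that differ the same way within both kinds, leaving out predicted genes and those overlapping the other strand by at least 100 bases, up to 4 members of each of the 20 role and 13 marker lists with an unadjusted p under 0.05, Ifng, Cxcl10, the knock-ins, and the clock and GTPase lists. Other genes named, including Gm45752 and Apoe, were chosen after their values were seen. Coordinates are of GRCm38 from annotation release M21 by symbol, and overlaps were found with bedtools 2.31.1. Alternatives were DESeq2 1.42.0, its size factors, ComBat-seq of sva 3.50.0, other filters, thinning of the deep libraries to the depth of the shallow ones, a replicate block and each library left out. The block within 1 line and DESeq2 after ComBat-seq were added after the data were seen. Tables were made with Python 3.11.15.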

Additional observations from a re-analysis of the deposited data

Results flagged for a closer look

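The effect of light differed between the P815-IFNG and P815-M lines by a test of the difference itself in 3 genes (edgeR, quasi-likelihood, adjusted over all genes). For Myh4 the fitted difference, P815-IFNG minus P815-M, was -14.89 on the log2 scale (adjusted p = 0.00104). Since all light libraries of P815-IFNG tumors were at 0 counts, this value depends on the prior count and is no measure of size. In P815-M tumors Myh4 had 0, 5.75 and 3.13 CPM in light and 0, 0.521 and 0 CPM in the dark. For Apoe the difference was -2.84 (standard error 0.46, adjusted p = 0.0315), from a log2 fold change of -1.32 in P815-IFNG and 1.53 in P815-M tumors. In the deep pair of P815-IFNG libraries the log2 ratio of Apoe was -0.26 against -1.83 in the shallow ones. For Gm45091, a predicted gene, it was -1.91 (standard error 0.31, adjusted p = 0.0315), with 91.7, 56.1 and 0.0231 CPM in light and 85.3, 87.1 and 0.0893 CPM in the dark in P815-IFNG tumors, and with 120, 108 and 93.5 CPM against 33.6, 32.3 and 37.4 CPM in P815-M tumors. The deep libraries held almost none of its counts, and the part of the kind of library in this difference was not tested.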

How the results depend on the processing

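The number of genes called between light and dark in P815-IFNG tumors, 2 in the fit described, was 0 with no term for the kind of library and with thinned deep libraries, 1 with filterByExpr and with the 10 shallow libraries alone, 12 without genes overlapping the other strand, 58 with DESeq2, 90 with ComBat-seq and DESeq2, 180 with ComBat-seq and 211 with no filter. For P815-M tumors, with 194 called, it was 0 with no term for the kind, 129 without overlapping genes, 293 with DESeq2 and 429 with no filter. For the difference between lines, with 3 called, it was 0 with no term for the kind and with thinned deep libraries, 1 with DESeq2 size factors and with filterByExpr, 18 with ComBat-seq and DESeq2, 23 with DESeq2, 49 with ComBat-seq and 203 with no filter. Leaving out 1 library gave 1 to 52 calls in P815-IFNG tumors, 61 to 237 in P815-M tumors and 1 to 14 for the difference. The causes were not tested.

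The genes higher in both kinds numbered 164 at a log2 ratio of at least 0.5, 1 at 2 and 14 at minimums of 20 and 5 CPM, and those lower 171, 8 and 9. Leaving out 1 shallow library gave 9 to 71 higher and 24 to 37 lower, and leaving out a deep one gave no value. The log2 fold change of GAVPO turned to 0.081 in the shallow libraries alone, without light replicate 3 and without dark replicate 3, with a range of -0.23 to 0.081 over the libraries left out, and that of mRuby to -0.036 with no term for the kind, -0.12 without light replicate 2 and -0.20 without dark replicate 1, with a range up to 0.46. The replicate numbers were not taken as pairs in the fit described. Deviations of same-numbered shallow P815-IFNG libraries correlated at 0.07 and those of P815-M libraries at most at 0.01. With 2 shallow libraries in each P815-IFNG group the deviations mirror each other, so the first value cannot settle whether the libraries were paired. With the replicate number as a block, 105 genes were called in P815-IFNG tumors (110 within that line), 318 in P815-M tumors and 38 for the difference. The deep group held 1 library a side, and shallow floors near 1 CPM limited low genes such as Cd3e.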

Other observations

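Genes of fat tissue were among the 27 that differed in opposite directions in the kinds of library. Of these 27, 25 were lower in light in the shallow and higher in light in the deep libraries. They included 6 of the 8 adipocyte markers, Adipoq, Plin1, Cfd, Fabp4, Cidec and Car3, and outside the list Scd1, Plin4 and Mgll. Fabp4, a fatty acid binding protein, had 6.84, 4.39 and 54.1 CPM in light and 38.8, 53.6 and 8.97 CPM in the dark. Car3, a carbonic anhydrase of fat and muscle, had 12.5, 0.976 and 59.1 CPM against 94.0, 127 and 10.7 CPM. None of the 8 adipocyte markers had an unadjusted p under 0.05. Of the other gene groups not yet described, 3 of 12 complement genes had an unadjusted p under 0.05, all higher in light, led by Cfb, a protease of the alternative pathway, with 230, 148 and 65.4 CPM against 120, 111 and 34.2 CPM and no overlap within either kind. The 12 genes of oxidative stress and metallothioneins had none, and the 13 heat shock genes had 2, Hsph1 and Hspa1a, with log2 fold changes of 0.49 and 1.31.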
